A study of Mus musculus with 57 samples.

Results

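The regions described here are 186 places in the mouse genome where chromatin was listed as open in embryos at gastrulation but in neither the earlier embryos nor epiblast stem cells (EpiSCs) in culture. They were chosen from the 42338 ATAC-seq regions of the posterior part of the E7.5 embryo (0.439% of them). A member had to overlap, by at least 1 bp, a region of both E7.2 embryo lists and no region of either E6.0 embryo list, of the list of unstimulated EpiSCs (0 h) or of the list of EpiSCs given CHIR99021 for 48 h. These 7 lists therefore fix the presence and absence of the members, which are a description and not a finding. A place missing from a list may still be open below the detection of that library, so "never open in EpiSCs" means not listed at 0 h or 48 h, each measured in 1 library.

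ATAC-seq marks DNA that a transposase can reach, as at promoters, enhancers and other bound elements. At gastrulation the epiblast passes through the primitive streak under Wnt, Nodal and Bmp signals and gives rise to mesoderm and endoderm, and enhancers of the new lineages become accessible. H3K27ac marks active promoters and enhancers, and H3K4me3 marks promoters. Polycomb repressive complex 2 sets H3K27me3, and Ring1b is the ubiquitin ligase subunit of Polycomb repressive complex 1, both found at silent developmental genes.

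The embryos were wild type: embryos at E6.0 (2 libraries) and E7.2 (2 libraries), with no part named, and the posterior part at E7.5 (1 library). The dissection of the embryos and the removal of extraembryonic tissue from them are also not given in the labels or series text. EpiSCs are cell lines from the epiblast of pre-streak embryos and were held with IWP2, which blocks Wnt secretion. Stimulated cells were instead given CHIR99021 (3 µM), a GSK3 inhibitor that switches on the Wnt pathway inside the cell, or Wnt3a protein (125 ng/mL). ATAC-seq (0 h and 48 h of CHIR99021, 1 library each) and one set of H3K27ac libraries (0 h, 1 library, and 24 h of CHIR99021, 2 libraries) came from wild-type EpiSCs. All H3K27me3, Ring1b and H3K4me3 libraries used, and a second H3K27ac set at 0, 6, 12 and 72 h of CHIR99021, came from EpiSCs labelled Wnt3KO, so marks and accessibility were in part measured in different genotypes. The 2 input libraries were also made from Wnt3KO EpiSCs.

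The ATAC-seq lists held 33881 (E7.2 replicate 1) to 72433 regions (E7.2 replicate 2). No list gives read counts, so the depth behind a region, and behind its absence, is unknown. With 1 or 2 libraries a group no exact permutation test between groups could pass (2 against 2 cannot go below p = 0.333, two-sided). No other test was run, and shares are given per library. Their intervals are 95% Wilson intervals, which cover counting error only. Nothing in the labels says that replicates came from separate litters or cultures. Names inside the files place the embryo lists at other stages than the labels do, and the labels were followed.

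Of the 22814 E7.5 posterior regions found in both E7.2 lists, 19551 were also listed in both E6.0 libraries and in EpiSCs, 1953 in both E6.0 libraries but not in EpiSCs, and 827 in 1 of the E6.0 libraries. Only 483 were in neither E6.0 list, and they divide into the 186 members and 297 regions that EpiSCs did list. Among these 297, 282 were listed at 48 h of CHIR99021 and 111 at 0 h. The members make up 38.5% (34.3 to 42.9%) of the regions in both E7.2 lists and neither E6.0 list. Of the regions open since E6.0, 9.08% (8.71 to 9.47%) were absent from EpiSCs. Both shares come only from the lists of the rule, so they are a description. The groups also differ. No H3K4me3 region lay within 1 kb of 97.3% of members and 98.0% of the 297, but of 26.2% of the 19551. In the E7.5 posterior list the 19551 were stronger too (median percentile 71.2 by fold enrichment, against 36.2 and 53.7). Whether these differences play a part in the shares was not tested. The number of members rests on single libraries: it was 2330 without E7.2 replicate 1, 227 without E7.2 replicate 2, 325 without E6.0 replicate 1 and 347 without E6.0 replicate 2. The share of 38.5% became 51.6%, 42.1%, 42.6% and 33.7% in the same order, beside 11.6%, 9.16%, 9.59% and 9.60% for regions open since E6.0. The 3 classes of 297, 1953 and 19551 regions serve below for comparison.

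Many regions just missed the rule through an E6.0 list or the list of stimulated cells. The number of regions that met every condition but overlapped 1 excluded list was 139 for E6.0 replicate 1, 161 for E6.0 replicate 2, 15 for EpiSCs at 0 h and 186 for EpiSCs at 48 h. The region that excluded them was of low rank in its own list for both E6.0 replicates (median percentiles by fold enrichment 31.7 and 33.4) and near the middle for the 48 h list (48.3). The rank was lowest for the 15 regions excluded by the 0 h EpiSC list (13.8). Just inside, 3 members lay less than 100 bp from an E6.0 region, and none lay that close to an EpiSC region. In all, 28 of the 186 had a region of one of the 4 excluded lists within 1 kb. The median distance from a member to the nearest such region was 6.35 kb (quartiles 1.96 and 15.2 kb), and to the nearest EpiSC region 11.7 kb.

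Members were weaker than the median region in 2 of the 3 lists that defined them, and above it in the longest, E7.2 replicate 2. Strength is the fold enrichment at the summit over local background, as the authors' peak caller gave it, and it ranks regions within 1 list only. In the E7.5 posterior list the median of the members was 5.47 (quartiles 4.37 and 6.90), against 6.56 over all regions of that list, which put the median member at percentile 36.2. The gastrulation-stage regions that EpiSCs shared had a median of 6.84, those open since E6.0 but not in EpiSCs 5.69, and those open since E6.0 and in EpiSCs 9.18. Only 5 members (2.69%) were among the strongest 10% of the list. Members were also short, with a median of 282.5 bp against 390 bp over the list.

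**Figure D1:**
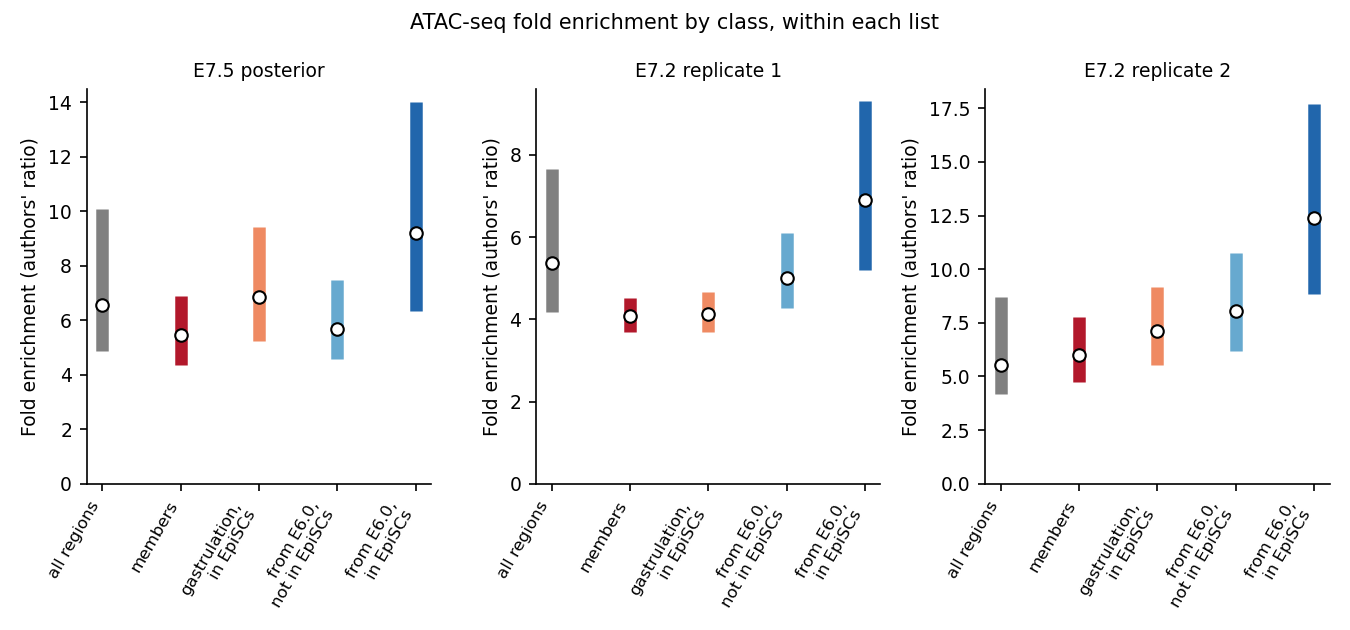
ATAC-seq fold enrichment (authors' ratio, linear axis from 0) in the E7.5 posterior list and both E7.2 lists. Bars span the quartiles and circles mark the medians of all regions of the list, the 186 members and the 3 comparison classes of 297, 1953 and 19551 regions; the members have the lowest median of the 4 classes in every panel.

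In E7.2 replicate 1 the members' median was 4.08 (percentile 22.3), near the 4.12 of the gastrulation-stage regions shared with EpiSCs and below the 5.37 of the whole list. No member reached the strongest 10% there. In E7.2 replicate 2, the longest list, their median was 6.01 (percentile 56.8), above the 5.54 of the whole list and below the 7.12, 8.07 and 12.4 of the comparison classes. The order of the members was only loosely shared between lists. Across the 186 members, Spearman's rho of the fold enrichment was 0.40 between E7.5 posterior and E7.2 replicate 2, 0.09 between E7.5 posterior and E7.2 replicate 1, and 0.28 between the E7.2 replicates. These points share the choice by the same 3 lists.

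The strongest member was chr18:73074494-73075276 (mm9), a 783 bp region with a fold enrichment of 28.4 in the E7.5 posterior list, 5.19 in E7.2 replicate 1 and 16.6 in E7.2 replicate 2. It lay 33.6 kb from the nearest E6.0 or EpiSC region and carried no mark in any EpiSC list. The second was chr1:17632263-17632768, with 21.2 at E7.5, 6.09 and 9.49 at E7.2. It is one of 2 among the leading 10 with H3K27ac in both stimulated wild-type libraries. Next came chr2:132962232-132962831 (18.6 at E7.5), then chr16:74560655-74561416 and chr1:132421182-132421677 (18.2 each). The chromosome 16 region stood 33.5 kb from any E6.0 or EpiSC region, while those on chromosomes 2 and 1 had one 1.81 and 1.97 kb away.

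Ranks 6 to 10 were chr5:103297056-103297511 (15.1), chr13:117084916-117085297 (13.8), chr2:136773719-136774148 (13.1), chr3:149070185-149070600 (12.2) and chr1:140194571-140195239 (11.9). The chromosome 13 region was the strongest member in E7.2 replicate 2 (17.4). None of the leading 10 lay within 25 kb of an input region. The list has no gene annotation in this build, so the regions are named by position.

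Most members lay far from one another. The median distance from a member to the nearest other member was 4.35 Mb, against 2.43 Mb for the gastrulation-stage regions shared with EpiSCs and 279 kb for those open since E6.0 and not in EpiSCs, distances that shrink as a class grows. A measure that depends less on class size asks what the next E7.5 posterior region along the chromosome is. For 3 of 186 members it was another member (1.61%, 0.55 to 4.63%), against 0.44% over all E7.5 posterior regions. For the 297 regions shared with EpiSCs, 3.37% (1.84 to 6.09%) were followed by one of their own class, which makes up 0.701% of the list. For those open since E6.0 the shares were 8.35% against 4.61% of the list (not in EpiSCs) and 57.6% against 46.2% (in EpiSCs). Each class was thus followed by its own kind above its share of the list. For members this rests on 3 of 186, and the share depended on the settings used. The region after a member was one not in both E7.2 lists for 100 of 186 (53.8%), a class that makes up 46.1% of the list.

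**Figure D2:**
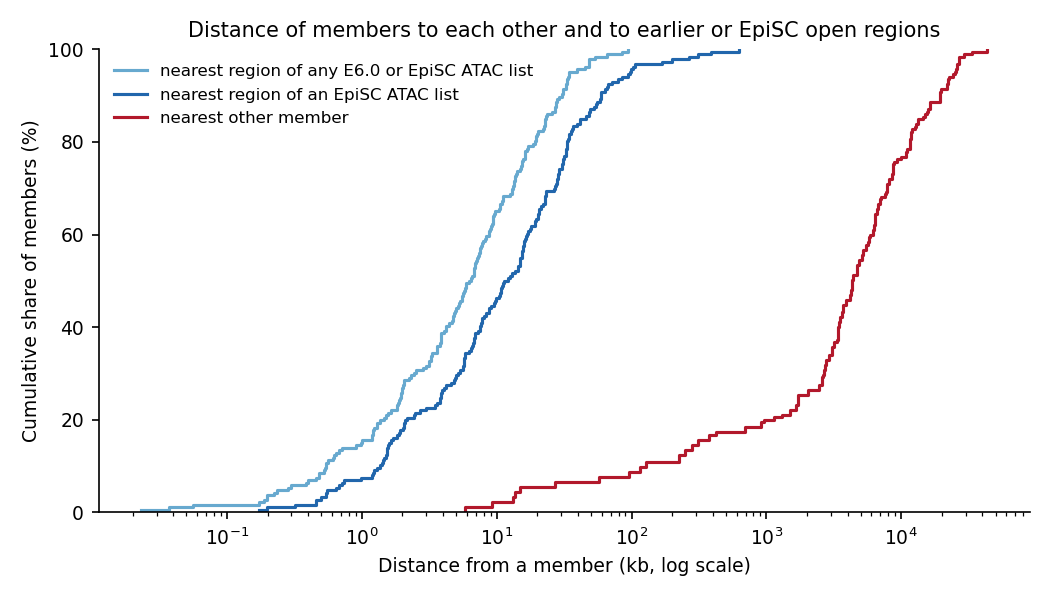
Cumulative share of the 186 members (vertical axis, %) by distance (horizontal axis, kb, log scale) to the nearest region of any E6.0 or EpiSC ATAC-seq list, to the nearest EpiSC region and to the nearest other member. Members lie a median of 6.35 kb from an E6.0 or EpiSC region but 4.35 Mb from each other; the 1 member that is alone on its chromosome is not in the curve for other members.

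Only 2 pairs of members stood within 10 kb of each other. One pair, at chr10:30782583-30789034, had E7.5 fold enrichments of 3.72 and 8.31. The other, at chr4:145702685-145712376, had 3.88 and 4.79, and both its members lay within 25 kb of an input region. Within 100 kb there were 7 groups with 16 members, the largest being 4 members at chr4:145702685-145769159. That group is part of a 1.48 Mb segment, chr4:145702685-147185772, singled out after its values were seen, where 7 of the 87 E7.5 posterior regions were members (8.05%). All 7 were weak (3.14 to 5.00), 5 lay within 25 kb of an input region, and 25 of the 48 input regions of that chromosome fell in the segment. Without these 7, 0.559% of members were followed by a member, close to the 0.423% of all regions that members then made up. Whether the segment's input signal plays a part was not tested.

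Some members stood near input regions, which are peaks called without an antibody. An input region lay within 25 kb of 13 of 186 members (6.99%, 4.13 to 11.6%), against 1.35% (0.525 to 3.41%) of gastrulation-stage regions shared with EpiSCs and 3.43% (2.71 to 4.33%) of regions open since E6.0 and not in EpiSCs. Over all E7.5 posterior regions the share was 1.6%. Direct overlap with either input list was seen at 4 members (2.15%), against 0.555% of all E7.5 posterior regions.

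Across the autosomes and X, members ranged from 1 of 1722 E7.5 posterior regions on chromosome 14 to 16 of 2228 on chromosome 10. The 3 regions on chromosome Y included none. Chromosome 2 held the most, 19 of 3573.

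In unstimulated wild-type EpiSCs no member carried H3K27ac (0 of 186, which allows a share of up to 1.61%), whereas 19.9% of all E7.5 posterior regions did. Of distal regions, here those with no H3K4me3 within 1 kb in any Wnt3KO list, 2.1% of the E7.5 posterior list and 0 of 181 members overlapped H3K27ac. In the comparison classes, 1.01% of the gastrulation-stage regions shared with EpiSCs, 0.666% of those open since E6.0 and not in EpiSCs and 40.6% of those open since E6.0 and in EpiSCs overlapped H3K27ac. After 24 h of CHIR99021, 23 members (12.4%, 8.38 to 17.9%) overlapped H3K27ac in replicate 1 and 14 (7.53%, 4.54 to 12.2%) in replicate 2. The background over all E7.5 posterior regions was 39.2% and 38.1%. Among distal regions it was 14% and 12.9%, against 12.7% (8.62 to 18.3%) and 7.73% (4.66 to 12.6%) of distal members, so members were near the distal background in replicate 1 and below it in replicate 2. Every one of the 14 was among the 23, so 7.53% of members were acetylated in both replicates, against 36.3% of all E7.5 posterior regions. The mean share was 9.95% ± 3.42 (SD, n = 2).

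Regions open since E6.0 and not in EpiSCs had a mean share of 8.35% ± 1.23 (SD, n = 2). The members' 9.95% differed from it by less than the members' own SD of 3.42, but by more than the SD of that class. It was below that of the gastrulation-stage regions shared with EpiSCs (31.5% ± 1.19, SD, n = 2). The gap between members and these shared regions is larger than the SD between replicates, and no test was run on it. It is in part set by the rule, which split the classes by whether EpiSCs listed them as open. Of the 297 shared regions, 282 were listed in EpiSCs at 48 h of CHIR99021. Members had the lower share at each level of ATAC-seq strength, with intervals that overlapped at some. Among distal regions with an E7.5 fold enrichment under 5, the shares were 8.45% and 5.63% for members and 23.3% and 21.7% for regions shared with EpiSCs, in replicates 1 and 2, with overlapping intervals in both. From 5 to 8 they were 11.4% and 8.86% for members and 28.9% in both replicates for regions shared with EpiSCs, with intervals apart. At a fold enrichment of 8 or more they were 25.8% (8 of 31) and 9.68% (3 of 31) for members, and 39.3% and 36.8% for regions shared with EpiSCs, where the intervals overlapped in replicate 1 (13.7 to 43.2% and 30.9 to 48.4%) and not in replicate 2.

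**Figure D3:**
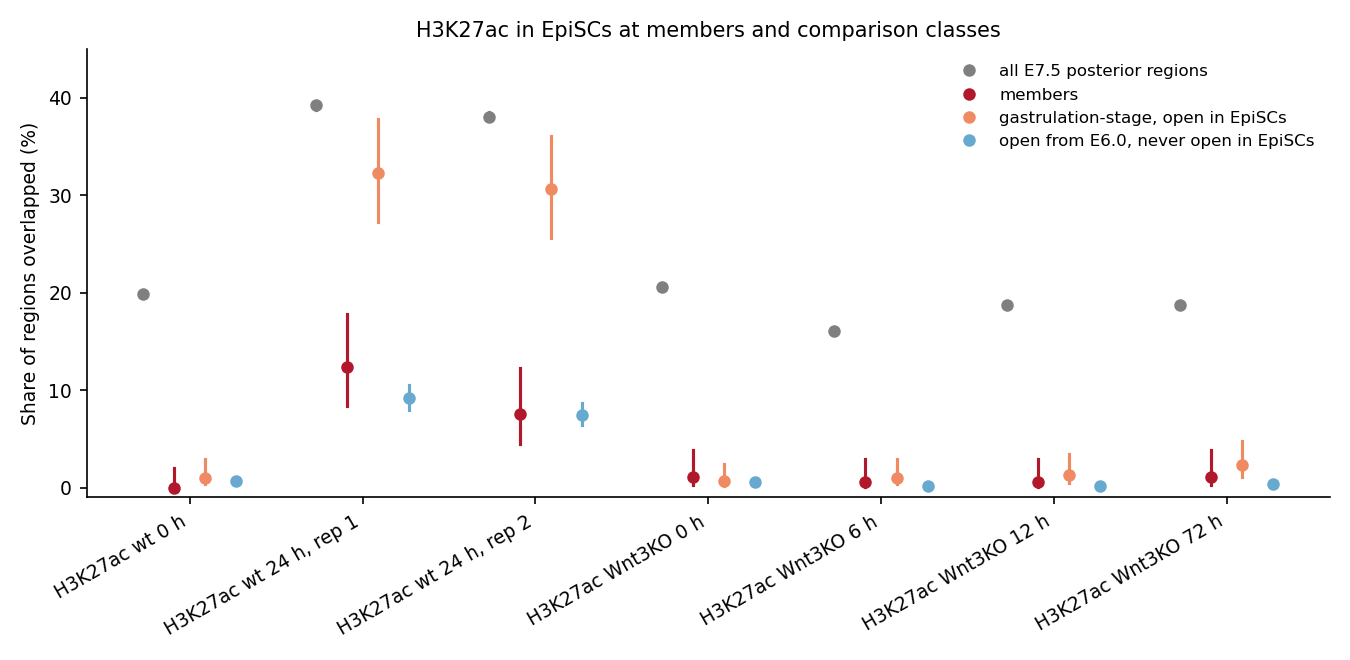
Share of regions (%) overlapped by H3K27ac in each EpiSC library, for all E7.5 posterior regions, the 186 members and 2 comparison classes; lines are 95% Wilson intervals. Members go from 0 of 186 at 0 h to 23 and 14 of 186 at 24 h in wild-type cells and stay at 1 or 2 of 186 in the Wnt3KO series.

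The 24 h lists were longer than the 0 h list (29056 and 27422 regions against 14453). When both were cut to their strongest 14453 regions, 6 members (3.23%, 1.49 to 6.86%) kept an overlap in each replicate, against 28.6% and 28.1% of all E7.5 posterior regions. The difference between 0 h and 24 h at members was thus smaller at equal length, 6 against 0 of 186. The part of list length in it was not tested further.

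The share of distal members with H3K27ac at 24 h was higher at each higher level of ATAC-seq strength, at 8.45%, 11.4% and 25.8% in replicate 1 and 5.63%, 8.86% and 9.68% in replicate 2, with overlapping intervals. In replicate 2 these were 4 of 71, 7 of 79 and 3 of 31. Distal regions shared with EpiSCs also rose. Those open since E6.0 and not in EpiSCs did not, at 8.83%, 7.68% and 8.06% in replicate 1 and 7.60%, 5.58% and 6.80% in replicate 2. The 14 members with H3K27ac in both 24 h libraries had a median E7.5 fold enrichment of 5.36, against 5.47 for the 163 with none. The 9 found in replicate 1 only had a median of 8.31 and a weaker H3K27ac signal, with a median fold enrichment of 3.84 against 5.43 for the 14. In 12 of the 14, neither H3K27ac region contained any EpiSC ATAC-seq region, at 0 h or 48 h. This is in part set by the rule, as members overlap no EpiSC region. The H3K27ac regions over members were also short, with medians of 494 and 605.5 bp in replicates 1 and 2. By contrast, at the gastrulation-stage regions shared with EpiSCs, 93 of 96 H3K27ac regions in replicate 1 held an EpiSC ATAC-seq region, which follows from how that class was chosen. The closer comparison is with regions open since E6.0 and not in EpiSCs, where 23 of 180 did in replicate 1, against 2 of 23 at members.

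Of the members acetylated in both 24 h libraries, the highest H3K27ac fold enrichment was at chr17:84551004-84551219, with 14.7 and 14.9 in replicates 1 and 2. This member was weak in ATAC-seq (3.98 at E7.5), and its H3K27ac region, 2606 and 2578 bp long, also covered an EpiSC region listed at 0 h and 48 h, 458 bp from the member. The second, chr1:153105216-153105724, reached 11.5 and 10.4 with a fold enrichment of 5.03 at E7.5, and its nearest EpiSC region was 6.95 kb away. The third, chr15:61810334-61810796, had 9.09 and 7.25 and 8.33 at E7.5. The strong member at chr1:17632263-17632768 had 6.66 and 5.91 and had no EpiSC region within 13.0 kb. The last of the 5 was chr5:36267874-36268265 with 6.60 and 5.56. Apart from the chromosome 17 region, none of these 5 had an EpiSC ATAC-seq region inside its H3K27ac region, and none lay within 25 kb of an input region. Other members acetylated in both 24 h libraries did. The member chr6:30754812-30755067 (4.04 and 3.94) overlapped input, and chr11:3097956-3098376 (2.60 and 2.73) had an input region within 25 kb. Without all members within 25 kb of input, the mean H3K27ac share at 24 h was 9.54%.

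**Figure D4:**
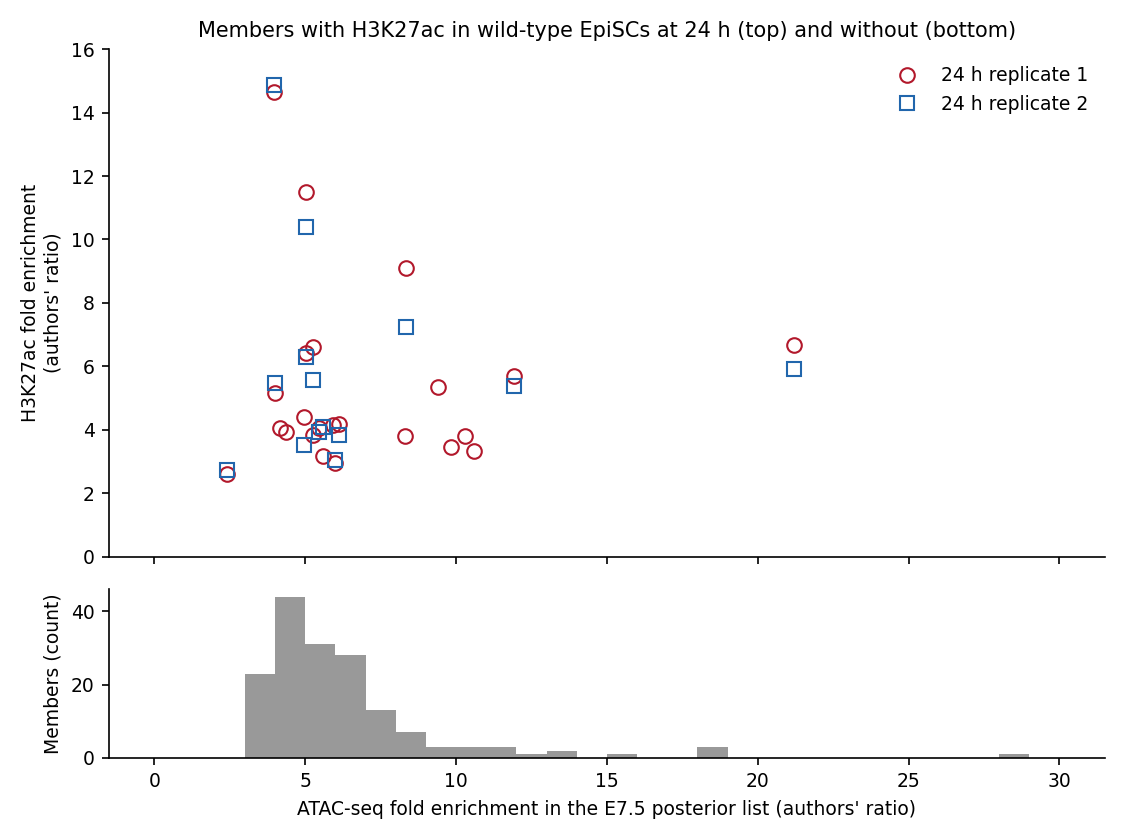
Upper panel: H3K27ac fold enrichment at 24 h (authors' ratio) of each member that overlaps an H3K27ac region, against its ATAC-seq fold enrichment in the E7.5 posterior list, with circles for replicate 1 (23 members) and squares for replicate 2 (14 members). Lower panel: number of the 163 members without H3K27ac at 24 h by ATAC-seq fold enrichment; acetylated members are spread over the same range, and the strongest member, at 28.4, is among those without.

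In Wnt3KO EpiSCs few members carried H3K27ac, as did few distal regions of any kind. The numbers overlapped were 2, 1, 1 and 2 of 186 with CHIR99021 for 0, 6, 12 and 72 h, against 20.6%, 16.1%, 18.7% and 18.8% of all E7.5 posterior regions. Among distal regions the shares were 0.552%, 0, 0 and 0.552% of members and 1.21%, 0.729%, 0.886% and 0.652% of the E7.5 posterior list. Both members concerned overlap input regions: chr12:75905141-75905451, in all 4 lists, and chr6:30754812-30755067, at 0 h and 72 h. Without the 4 members that overlap input, 0 of 182 carried H3K27ac in this series. The Wnt3KO series differs from the wild-type series in genotype, in times and in list length (10161 to 12135 regions against 27422 and more at 24 h), and these cannot be told apart as the source of the difference at members.

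Few members carried Polycomb marks, as did few E7.5 posterior regions of any kind. H3K27me3 at 0 h overlapped 4 members in replicate 1 (2.15%, 0.839 to 5.40%) and 2 in replicate 2 (1.08%, 0.295 to 3.84%), against 2.78% and 4.24% of all E7.5 posterior regions. Ring1b at 0 h overlapped 3 members (1.61%) and 2 members (1.08%), against 1.92% and 1.99%. Among distal regions, H3K27me3 overlapped 1.66% and 0.552% of members against 0.591% and 0.656% of the E7.5 posterior list, and Ring1b 1.1% and 0% against 0.502% and 0.326%. The means were 1.61% ± 0.760 for H3K27me3 and 1.34% ± 0.380 for Ring1b (SD, n = 2 each). For gastrulation-stage regions shared with EpiSCs they were lower, at 0.505% and 0.168%. They were higher for regions open since E6.0, at 4.02% and 1.74% for those not in EpiSCs and 5.93% and 3.28% for those in EpiSCs. Input regions, which no antibody selected, overlapped 3 (1.61%) and 4 members (2.15%) in the 2 input libraries, against 0.293% and 0.517% of all E7.5 posterior regions. At members the counts were thus 4 and 2 for H3K27me3 and 3 and 2 for Ring1b, beside 3 and 4 for input. The input lists were shorter, at 253 and 424 regions, against 4332 and 6236 for H3K27me3 and 1605 and 1783 for Ring1b.

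**Figure D5:**
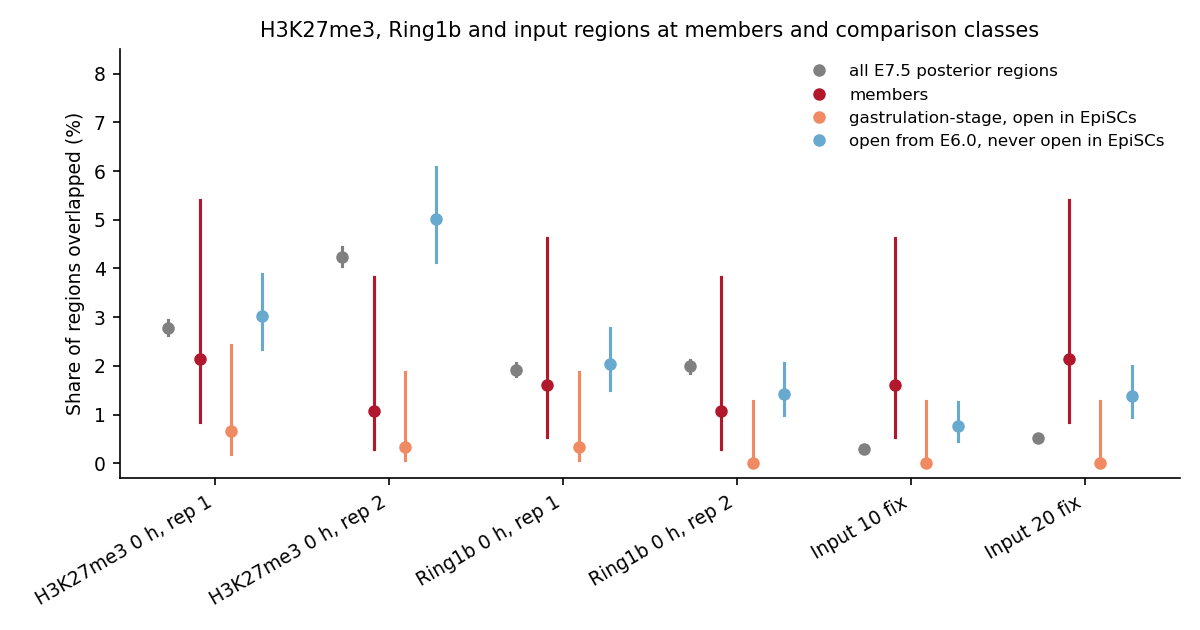
Share of regions (%) overlapped by H3K27me3 and Ring1b in unstimulated Wnt3KO EpiSCs and by the 2 input libraries, for all E7.5 posterior regions, the 186 members and 2 comparison classes; lines are 95% Wilson intervals. Members lie between 1.08% and 2.15% in all 6 libraries, inputs included.

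Member by member, the Polycomb overlaps gathered at places that also stood out in input. H3K27me3 was in both 0 h lists at 2 members (1.08%), against 2.47% of all E7.5 posterior regions. One, chr12:75905141-75905451, had H3K27me3 fold enrichments of 20.7 and 31.9, Ring1b fold enrichments of 20.8 and 35.9 and H3K4me3 in all 4 lists, and its input regions had 20.9 and 15.1. It was the single member with Ring1b in both replicates (0.538%, against 1.37% of all E7.5 posterior regions). The other, chr16:3239284-3239546, had H3K27me3 fold enrichments of 4.71 and 5.68, Ring1b in replicate 1 (6.58) and input in both libraries (7.12 and 7.99). Counting every H3K27me3 and Ring1b list at any time, 7 members were touched, and 6 of them had an input region within 25 kb.

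The exception was chr13:117084916-117085297, one of the 10 strongest members. It overlapped a Ring1b region of 0 h replicate 2 (fold enrichment 5.11) but none of replicate 1, no H3K27me3 region and no input region. It rests on 1 library.

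After stimulation the counts stayed as low. H3K27me3 overlapped 4 members in the list made after 5 h of Wnt3a, and 2, 1 and 1 with CHIR99021 for 6, 12 and 72 h. Ring1b overlapped 2 with Wnt3a (5 h) and 1 with CHIR99021 (72 h). The H3K27me3 share of members was 2.15% (0.839 to 5.40%) after Wnt3a and 1.08%, 0.538% and 0.538% after CHIR99021. Over all E7.5 posterior regions it was 0.744% after Wnt3a and 1.02%, 1.33% and 1.92% after CHIR99021. Ring1b shares were 1.08% and 0.538% of members, against 3.26% and 0.687%. Among distal regions, H3K27me3 after Wnt3a overlapped 1.66% (0.565 to 4.76%) of members and 0.265% of the E7.5 posterior list. With CHIR99021 the distal shares were 0.552%, 0 and 0, against 0.123%, 0.127% and 0.280%. All 4 members with H3K27me3 after Wnt3a had an input region within 25 kb.

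Members lay away from promoter marks. H3K4me3 overlapped 1 member at 0, 6 and 12 h and 2 at 72 h, against 34.7%, 31.6%, 32.3% and 35.2% of all E7.5 posterior regions. The member in all 4 lists was the input-overlapping one on chromosome 12, and the other was chr4:82184413-82184648 at 72 h (fold enrichment 5.45). No H3K4me3 region of any Wnt3KO list lay within 1 kb of 181 of the 186 (97.3%, 93.9 to 98.8%). That share was close to the 98.0% of gastrulation-stage regions shared with EpiSCs. It was above the 90.6% of regions open since E6.0 and not in EpiSCs and the 61.6% of all E7.5 posterior regions. In total, 157 of the 186 members (84.4%) carried none of the 4 marks in any EpiSC list used, against 52.2% of all E7.5 posterior regions. The share was similar for regions open since E6.0 and not in EpiSCs (82.3%) and lower for gastrulation-stage regions shared with EpiSCs (63.0%). Among distal regions the shares were close, 85.6% (155 of 181) of members and 82.8% of the E7.5 posterior list. In the same order of comparison classes the distal shares were 88.6% and 63.9%.

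Known gastrulation genes did not gather members. Of 28 gene starts, 27 had a promoter or Polycomb region within 5 kb and were used. They include the streak and mesoderm regulators T, Eomes, Mixl1, Mesp1, Tbx6 and Msgn1, the later mesoderm genes Kdr, Tal1 and Foxf1, the endoderm and anterior genes Foxa2, Sox17 and Otx2, and the pluripotency genes Pou5f1, Sox2 and Nanog. Hand1 was left out because no such region lay that close. Within 100 kb of the 27 starts there were 236 E7.5 posterior regions (0.557%) and 1 member (0.538%), so the share of members was that of the background. The 1 member was 69.7 kb from Nanog, which encodes a pluripotency factor, where 15 E7.5 posterior regions were counted. The nearest member to Eomes was 361 kb away, to Meis1 456 kb and to T 1162 kb.

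None of the 186 members lay in a Hox cluster or within 100 kb of one, where 71 E7.5 posterior regions were found (0.168% of the list). At that share fewer than 1 of 186 regions would fall there, so a count of 0 does not separate the members from other regions. The nearest members were 18.7 Mb from HoxA, 9.10 Mb from HoxB, 16.9 Mb from HoxC and 9.38 Mb from HoxD.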

How the data were processed

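ATAC-seq (7 libraries), ChIP-seq (21 libraries with an antibody) and input (2 libraries) were analysed as deposited peak lists in mm9. A pair of wild-type H3K4me3 libraries was left out of every comparison because their labels contradict each other about stimulation, and the 25 4C-seq samples are not used. Per the submitters' processing notes, MACS2 2.1.0 and SAMtools 0.1.19 were used for both assays, with Bowtie 1.1.0 for ChIP-seq and with Bowtie2 2.1.0 and cutadapt 1.8.1 for ATAC-seq. The tools behind both H3K27ac libraries at 24 h were not named. Fold enrichment is a deposited ratio of signal over local background from the authors' peak caller. That caller also gave the deposited −log10 q and −log10 p of each peak, with 1 list per library, and the lowest −log10 p in an ATAC-seq list was 5.00.

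Overlaps of at least 1 bp, distances and shares were computed with Python 3.11.15, NumPy, pandas and SciPy, and the overlap code was tested on simulated intervals. Overlapping peaks of a list would have been merged, and 0 were. The ATAC-seq lists came from 2 processing folders, 1 with the E7.5 posterior, E7.2 replicate 1, E6.0 replicate 1 and 0 h EpiSC lists, 1 with the other 3. Hox clusters and 28 gene starts were given mm9 positions from general knowledge of the mouse genome. A start was used if H3K4me3, H3K27me3 or Ring1b lay within 5 kb. No sequence of this build was used here. The regions named are the 10 members strongest at E7.5, the 5 strongest with H3K27ac in both 24 h lists, those with Ring1b or H3K27me3 in both 0 h replicates and the groups of neighbours within 10 kb. Any others were named after their values were seen. The members, loci and measures were chosen with earlier results of these data known. Alternatives were a −log10 q of at least 5 (all lists) or 10 (E7.5 posterior), overlap of 50% of the smaller region, a 1 kb margin for absence or for marks, lists of equal length, leaving out each replicate and leaving out members that overlap input. After seeing the data, 4 more were added: leaving out members within 25 kb of input, leaving out the chromosome 4 segment, using 1 processing folder only, and cutting the 24 h H3K27ac lists to the length of the 0 h list. Shares over distal regions only were also added then.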

Additional observations from a re-analysis of the deposited data

How the results depend on the processing

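The number of members depended most on E7.2 replicate 1: leaving out 1 ATAC-seq replicate at a time gave 227 to 2330 members, the highest without E7.2 replicate 1, the shortest list. Without E6.0 replicate 1 there were 325 and without E6.0 replicate 2 there were 347. Lists of equal length gave 345, and a −log10 q of at least 10 at E7.5 gave 97. The processing folder of the E7.5 posterior list alone gave 764, since it lacks the 48 h EpiSC list and 2 of the embryo lists. There the median percentile of strength was 43.7, the share followed by a member 4.71% (1.8% of all regions were members) and the mean H3K27ac share at 24 h 22.9%. The share of members followed by a member was 0 with a −log10 q of at least 10, 0.532% with 50% overlap, and 1.32% to 8.67% without 1 replicate each. Members then made up 0.333%, 0.444%, and 0.536% to 5.50% of all E7.5 posterior regions. The same share was 0.645% with a −log10 q of at least 5, 0.633% with a 1 kb margin for absence and 0.578% without members within 25 kb of input. Members then made up 0.384%, 0.373% and 0.409%. With equal lists it was 1.45% against 1.02%, and without members that overlap input 1.65% against 0.430%.

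The mean H3K27ac share at 24 h was 6.93% to 12.5% without 1 replicate each and 3.23% with the 24 h lists cut to the length of the 0 h list. H3K27me3 at 0 h fell to 0.515% with a −log10 q of at least 10, 0.633% with a 1 kb margin for absence, 0.725% with equal lists, 0.549% without members that overlap input and 0 without those within 25 kb of input, and it was 2.42% with marks within 1 kb. Ring1b at 0 h gave 0.515%, 0.633%, 0.549% and 0.289% under the same settings except equal lists, and 1.88% with marks within 1 kb. Without 1 replicate each, H3K27me3 ranged from 0.536% to 2.88% and Ring1b from 0.322% to 1.87%. H3K27ac in any Wnt3KO list was 0 without the input-overlapping members and also without those within 25 kb of input. H3K4me3 in any Wnt3KO list was 0 with a −log10 q of at least 10. Leaving aside the number of members, 91 of 117 recomputed values stayed within the SD or interval of their main value, and the cause of the others was not tested. No paired analysis was possible because the results are shares of regions with no test between groups and the labels give no litter, day or culture that a replicate number would mark. Depth is unknown, so a region missing from a list may have been missed by the library.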
